A study of Mus musculus with 9 samples.

Results

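The mature strands of the miR-192 and miR-194 hairpins were followed in mouse liver after acetaminophen (APAP), a drug that injures hepatocytes at high dose, with and without a prior dose of dmPGE2, a methylated analog of prostaglandin E2. The members are the 4 rows of the deposited small-RNA table named mmu-miR-192-5p, mmu-miR-192-3p, mmu-miR-194-5p and mmu-miR-194-2-3p (mmu, for mouse, is left out in most places), out of 946 rows. All 4 were found and all 4 passed the filter on low counts, which left 360 rows for testing. There were 3 groups of 3 libraries, all made from liver of 8-week-old C57 BL6 mice of wild-type genotype. The dmPGE2+APAP group was injected with 300 µg/kg dmPGE2 1 h before 500 mg/kg APAP, the APAP group had the same dose of APAP, and the Control group had saline. Livers were taken 6 h after APAP in both APAP groups, and the sample names give 6 h for Control too. The vehicle of dmPGE2 is not given in the sources used here and no group with dmPGE2 alone was analysed here, so dmPGE2 was measured only on top of APAP. The labels do not say that the libraries come from separate animals, so the p-values rest on a spread between libraries that may be technical only.

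A miRNA gene is transcribed as a long precursor and cut to a hairpin, whose arms give a 5p and a 3p strand. Usually 1 arm, the guide, is loaded into Argonaute and represses messenger RNAs that match its seed, while the other, the passenger, is mostly degraded. miR-192 and miR-194 are abundant in epithelia of liver, gut and kidney, and miR-215 is a relative of miR-192. Their genes are known targets of p53 in human cells. miR-192-5p is also known as a liver-derived miRNA that appears in mouse and human plasma after APAP overdose.

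The members come from 2 hairpins that lie side by side on chromosome 19, and a related pair lies on chromosome 1. By RefSeq coordinates for GRCm38.p6, which is mm10, the genome used for mapping, Mir194-2 is at chr19:6264643-6264728 and Mir192 at chr19:6264844-6264932, both on the plus strand and 115 bases apart. No other gene of the RefSeq table overlaps them: the protein-coding gene Atg2a ends 2338 bases before Mir194-2 and the lncRNA gene Gm14963 begins 3861 bases after Mir192. On chromosome 1, Mir194-1 at chr1:185313319-185313385 and Mir215 at chr1:185313581-185313692 are 195 bases apart on the plus strand and lie within the span of Iars2 (chr1:185286642-185329419), which encodes a mitochondrial isoleucyl-tRNA synthetase. Exon boundaries were not used here. The hairpins are shown so that the arms can be placed, 5′ to 3′ with the annotated mature strands in capitals, the 5p arm before the 3p arm.
Mir192: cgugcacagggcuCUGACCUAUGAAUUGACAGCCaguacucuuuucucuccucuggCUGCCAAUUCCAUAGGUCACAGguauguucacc
Mir194-2: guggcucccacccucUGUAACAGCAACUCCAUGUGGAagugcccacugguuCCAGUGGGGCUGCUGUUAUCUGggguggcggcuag
Mir194-1: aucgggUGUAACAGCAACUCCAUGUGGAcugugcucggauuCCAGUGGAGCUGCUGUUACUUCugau
Mir215: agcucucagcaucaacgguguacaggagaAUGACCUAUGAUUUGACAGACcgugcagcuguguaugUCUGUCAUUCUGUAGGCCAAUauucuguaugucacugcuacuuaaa

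The mature strands show which reads can be placed on which pair of hairpins. All 7 names were matched in the RefSeq table, and capitals mark the seed, bases 2 to 8 from the 5′ end.
miR-192-5p: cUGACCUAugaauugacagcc
miR-215-5p: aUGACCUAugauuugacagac
miR-192-3p: cUGCCAAUuccauaggucacag
miR-215-3p: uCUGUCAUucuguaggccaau
miR-194-5p: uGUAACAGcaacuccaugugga
miR-194-2-3p: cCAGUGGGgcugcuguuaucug
miR-194-1-3p: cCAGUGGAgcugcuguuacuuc
miR-192-5p and miR-215-5p share the seed UGACCUA, which no other of the 1679 mature names in the RefSeq table carries. Over their 21 bases they differ at 3 positions counted from the 5′ end, written with the base of miR-192-5p first: C1A, A12U and C20A. miR-194-5p has the same 22 bases in both miR-194 hairpins, so its row cannot be split between chromosomes. The 3p arms of these hairpins can be told apart by 4 of 22 bases, G8A, U19C, C20U and G22C, with the base of miR-194-2-3p first, and G8A lies in the seed. The seed of miR-194-5p and that of miR-192-3p were each found in 1 mature name of the table. The mismatch setting of the aligner is not given in the sources used here, so reads of miR-192-5p with errors could be counted as miR-215-5p.

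Reads assigned to the chromosome 19 pair far outnumbered those of the chromosome 1 pair. Over all 9 libraries the table held 4680840 reads of miR-192-5p and 722 of miR-215-5p, its seed relative. miR-215-5p made up between 0.00757% and 0.0256% of the 2 rows' reads in a library. For miR-194 the 3p arms give the only separate view of the hairpins. They held 1473 reads of miR-194-2-3p from chromosome 19 and 4 reads of miR-194-1-3p from chromosome 1.

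The share of chromosome 19 among the miR-194 3p reads was high in each group. It was 288 of 290 reads (99.3%) in dmPGE2+APAP, 396 of 398 (99.5%) in APAP and 789 of 789 in Control. With the Control reads pooled as if from 1 library, 0 chromosome 1 reads allow a share of up to 0.380%. In Control replicates 1, 2 and 3 taken singly the limits were 2.0%, 1.19% and 0.777%. The precision per library varied with depth. In dmPGE2+APAP replicate 2, the shallowest library, all 18 reads were miR-194-2-3p, with an exact Clopper-Pearson 95% interval of 81.5% to 100%, whereas Control replicate 3 had 386 of 386 reads with an interval of 99.0% to 100%. These intervals cover counting error only, since PCR copies are not independent molecules. A share of 3p reads is not a share of miR-194-5p reads, because the hairpins may keep their 3p arm to different degrees. The 3p arm of Mir215 was also near 0, with 0 reads in the 3 dmPGE2+APAP libraries, 3, 2 and 1 in APAP and 1, 4 and 1 in Control.

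**Figure D1:**
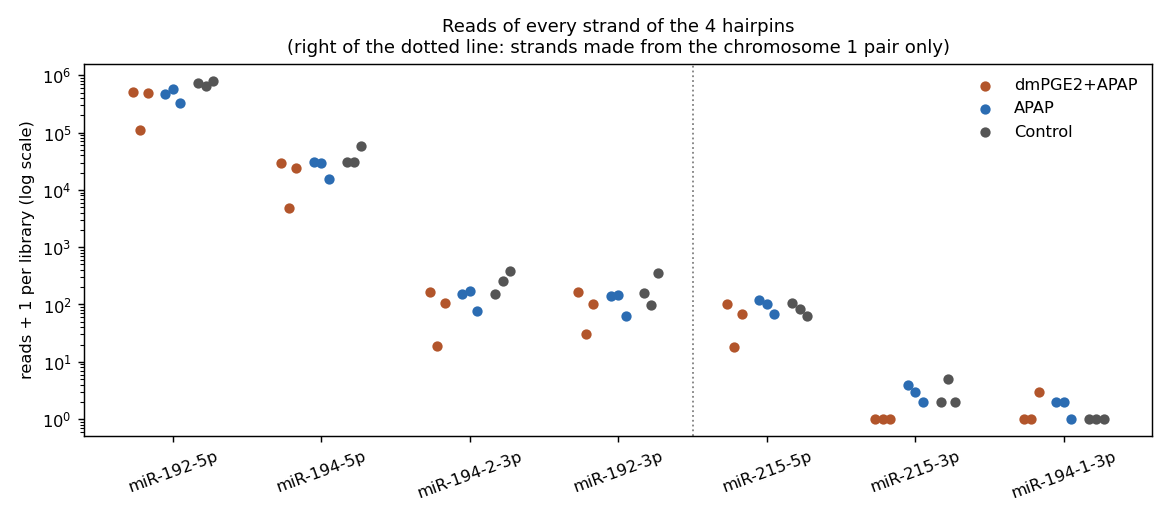
Reads plus 1 of each mature strand of the 4 hairpins in every library, on a log axis, with 1 point per library coloured by group. miR-192-5p ranged from 111592 to 805511 reads, while miR-194-1-3p never exceeded 2.

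Total reads over all rows of the table ranged from 1038799 in dmPGE2+APAP replicate 2 to 10483460 in Control replicate 3. Levels between groups are therefore given as CPM, read counts relative to the TMM-scaled library size, which sets the typical row equal across libraries. The liver marker miR-122-5p was abundant, as the tissue label implies, with a mean of 199148 CPM over the 9 libraries. All 10 of the liver-enriched miRNAs listed for this tissue, among them miR-192-5p and miR-194-5p, were tested. Marker miRNAs of other cell types were present in all groups. The summed level of 4 red-cell miRNAs was 352 to 379 CPM in dmPGE2+APAP, 731 to 1398 in APAP and 431 to 543 in Control, with 0 of 4 markers absent in any group. That of 3 muscle miRNAs was 340 to 720 CPM in dmPGE2+APAP, 313 to 902 in APAP and 481 to 2699 in Control. The part of these in the values of the members was not tested. In bulk liver, fewer hepatocytes and less of a miRNA per hepatocyte cannot be told apart.

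miR-192-5p was the dominant strand of the chromosome 19 pair and ranked 4 or 5 by abundance in every library. The level of mmu-miR-192-5p was 71201, 95093 and 99290 CPM in the dmPGE2+APAP libraries, 66959, 78820 and 79818 CPM in the APAP libraries and 108886, 89406 and 74205 CPM in the Control libraries. All groups overlapped, and the lowest and highest of the 9 values were 1.63-fold apart. As a share of all reads it averaged 9.40% ± 1.92 in dmPGE2+APAP, 8.04% ± 1.27 in APAP and 8.07% ± 1.55 in Control (SD, n = 3 each). Ranks and shares are over all rows of the table, among them miR-122-5p and miR-122b-3p. The counts of those rows differed by at most 0.0174% in any library, so the same reads may enter the totals and ranks more than once. Shares without miR-122b-3p were not computed.

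No difference in miR-192-5p passed the test. Levels averaged 88528 ± 15152 CPM in dmPGE2+APAP, 75199 ± 7153 in APAP and 90832 ± 17385 in Control (SD, n = 3). The log2 change of APAP over Control was -0.27 (SE 0.20), and its p in the quasi-likelihood test of edgeR was 0.637 after adjustment over 360 rows (Benjamini-Hochberg). Its 95% interval ran from 0.614-fold to 1.12-fold. Between dmPGE2+APAP and APAP the log2 change was 0.24 (SE 0.20, edgeR adjusted p 0.896) with an interval of 0.873-fold to 1.59-fold. Against Control, dmPGE2+APAP was at -0.04 (SE 0.20, edgeR adjusted p 0.961), and the sign turned with library totals (0.22) and in DESeq2 (0.0019). The value of APAP over Control came to -0.01 with library totals.

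miR-194-5p, the guide shared by both miR-194 hairpins, was the second most abundant of the 4 strands. The level of mmu-miR-194-5p was 4139, 4071 and 4876 CPM in the dmPGE2+APAP libraries, 4430, 4063 and 3713 CPM in the APAP libraries and 4565, 4114 and 5429 CPM in the Control libraries. Again all groups overlapped, and the highest value was 1.46-fold the lowest. Averages were 4362 ± 447 CPM in dmPGE2+APAP, 4069 ± 358 in APAP and 4703 ± 668 in Control (SD, n = 3). It ranked between 17 and 21 among all rows, miR-122b-3p included, depending on the library.

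The comparisons of miR-194-5p did not pass either. The log2 change of APAP over Control was -0.21 (SE 0.18, edgeR adjusted p 0.701) with a 95% interval of 0.662-fold to 1.13-fold, and with library totals it turned to 0.018. The value for dmPGE2+APAP over APAP was 0.10 (SE 0.18, edgeR adjusted p 0.925), and its interval reached from 0.820-fold to 1.40-fold. Compared with Control, dmPGE2+APAP stood at -0.11 (SE 0.18, edgeR adjusted p 0.804), which library totals turned to 0.11. The within-group coefficients of variation of miR-194-5p were 10.2% in dmPGE2+APAP, 8.81% in APAP and 14.2% in Control. The medians over the 34 tested rows with a mean of at least 1000 CPM were 14.4% in dmPGE2+APAP, 11.8% in APAP and 16.0% in Control.

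miR-194-2-3p, the passenger strand that marks the chromosome 19 hairpin, had the largest differences from Control among the 4 strands, and the smallest between dmPGE2+APAP and APAP. Counts of mmu-miR-194-2-3p were 163, 18 and 107 reads in the dmPGE2+APAP libraries, or 23.0, 15.3 and 21.9 CPM. The APAP libraries held 152, 168 and 76 reads, or 21.9, 23.0 and 18.2 CPM. The Control libraries held 150, 253 and 386 reads, or 22.01, 34.4 and 35.6 CPM. Control replicates 2 and 3 thus stood above all other libraries, while Control replicate 1 lay among the APAP and dmPGE2+APAP values.

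The level of miR-194-2-3p averaged 20.1 ± 4.15 CPM in dmPGE2+APAP, 21.0 ± 2.53 in APAP and 30.6 ± 7.51 in Control (SD, n = 3). The log2 change was -0.58 (SE 0.26) for dmPGE2+APAP over Control and -0.54 (SE 0.26) for APAP over Control. Their unadjusted p-values in edgeR's quasi-likelihood fit were 0.0453 and 0.0526, and after adjustment over all 360 rows both failed, at 0.429 and 0.5. The 2 comparisons share the Control libraries. Between dmPGE2+APAP and APAP the log2 change was -0.03 (SE 0.27, edgeR adjusted p 0.993), with an interval of 0.660-fold to 1.45-fold. The value for dmPGE2+APAP over Control was -0.38 without dmPGE2+APAP replicate 2, whose 18 reads carry an exact 95% Poisson interval of 10.7 to 28.4 reads, and -0.36 with library totals. That of APAP over Control was -0.31 with library totals.

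miR-192-3p, the passenger strand of miR-192, was measured at a similar low level. Counts of mmu-miR-192-3p were 166, 30 and 103 reads in the dmPGE2+APAP libraries, or 23.5, 25.6 and 21.1 CPM. The APAP libraries had 141, 146 and 62 reads, or 20.3, 20.0 and 14.8 CPM. The Control libraries had 156, 97 and 354 reads, or 22.9, 13.2 and 32.6 CPM. Control replicates 2 and 3 held the lowest and the highest level of all 9 libraries, so the Control values enclosed both other groups.

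In miR-192-3p the dmPGE2+APAP values lay above all APAP values, yet the test did not pass. Averages were 23.4 ± 2.26 CPM in dmPGE2+APAP, 18.4 ± 3.08 in APAP and 22.9 ± 9.72 in Control (SD, n = 3). The log2 change of dmPGE2+APAP over APAP was 0.33 (SE 0.31, edgeR adjusted p 0.902). Groups that do not overlap were found in 50 of 360 tested rows of this comparison (13.9%), so the separation is a common one here. In the other comparisons the groups overlapped for 4 of 4 members, where 16.7% of rows for APAP over Control and 14.7% for dmPGE2+APAP over Control did not overlap. APAP over Control stood at -0.32 (SE 0.30, edgeR adjusted p 0.745) and became 0.051 without Control replicate 3 and -0.59 without Control replicate 2. dmPGE2+APAP over Control was at 0.01 (SE 0.31, edgeR adjusted p 0.994), and without Control replicate 3 it was 0.39, against -0.21 without Control replicate 2.

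**Figure D2:**
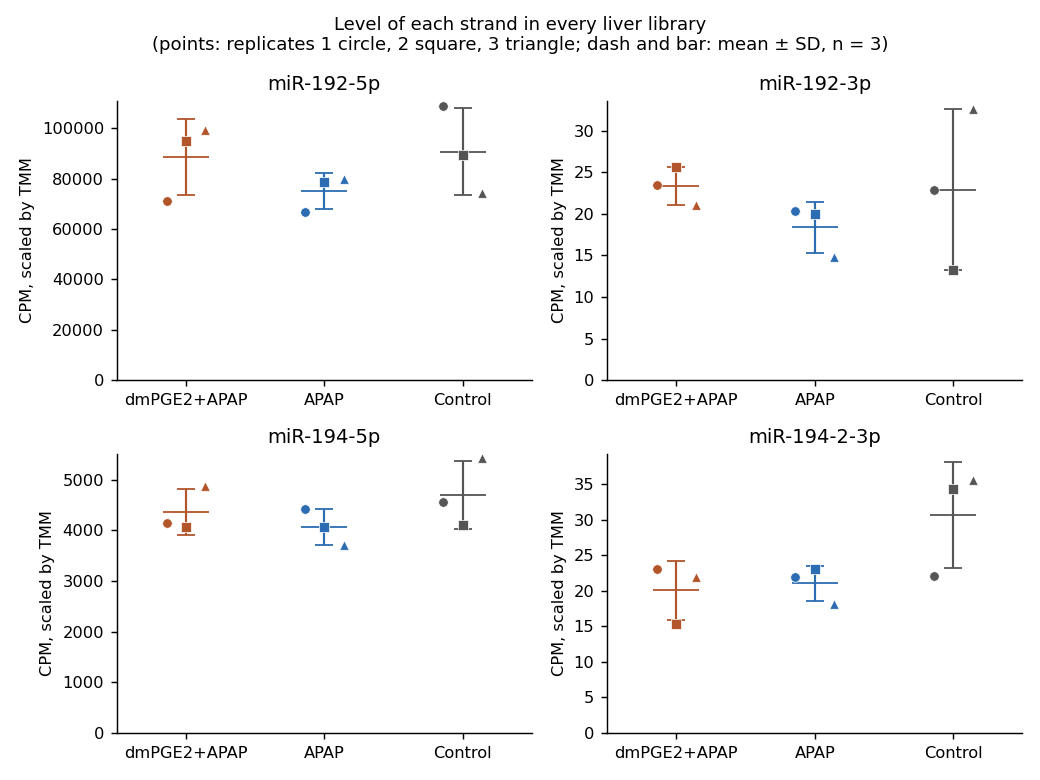
CPM of each strand by group, 1 symbol per library with the mean and SD of 3 libraries, on axes that start at 0. The groups overlap in every panel except dmPGE2+APAP and APAP for miR-192-3p, and Control replicate 1 lies apart from the other 2 Control libraries in miR-194-2-3p (22.01 CPM against 34.4 and 35.6).

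Across the 12 tests of members, edgeR called 0 at an adjusted p under 0.05, and 1 had an unadjusted p under 0.05. DESeq2 and limma-voom also called 0 of 12. The same threshold called 0.833% of all rows for APAP over Control, and 0.278% for each of dmPGE2+APAP over APAP and dmPGE2+APAP over Control, so few rows of any kind passed. For APAP over Control 4 of 4 member values lay below 0 (3 of 4 with library totals), beside 199 of all 360 rows. The median log2 change of the members was -0.29, beside -0.05 over all rows. For dmPGE2+APAP over APAP 3 of 4 lay above 0, beside 180 of 360, with a median of 0.17 beside 0.00037 for all rows. For dmPGE2+APAP over Control 1 of 4 lay above 0 (3 of 4 with library totals, 2 of 4 with DESeq2), beside 166 of 360. The medians there were -0.07 for members and -0.03 for all rows. The members are arms of 2 neighbouring hairpins, so their values are not independent. APAP over Control and dmPGE2+APAP over APAP also share the APAP libraries. Library totals moved the median of all rows by 0.25 for APAP over Control and by 0.22 for dmPGE2+APAP over Control.

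**Figure D3:**
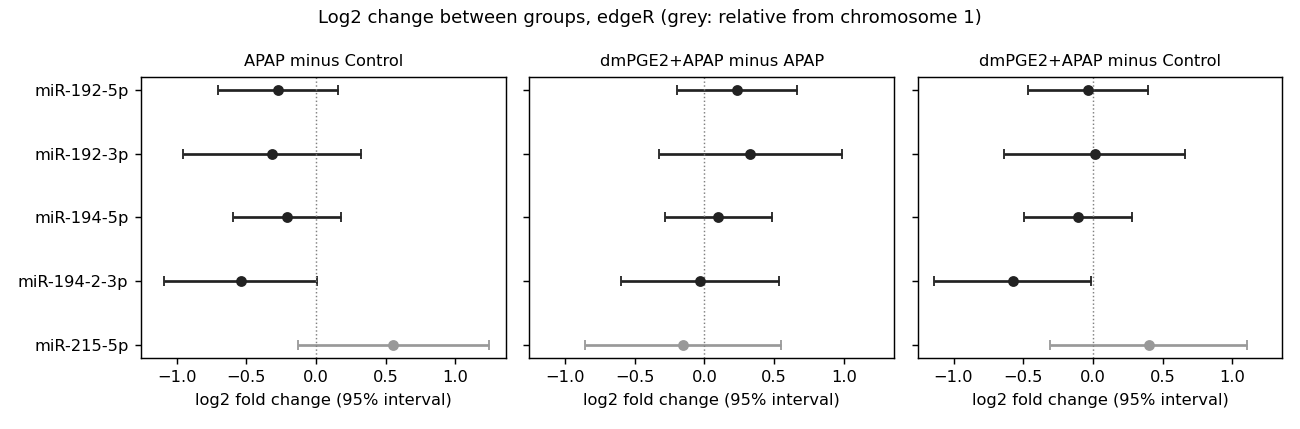
Log2 fold change and 95% interval from edgeR for the 4 strands (black) and miR-215-5p (grey) in 3 comparisons. The interval of miR-194-2-3p in dmPGE2+APAP over Control, from -1.14 to -0.01, excludes 0 before adjustment for multiple tests, and all the others include it.

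miR-215-5p, the seed relative from chromosome 1, was measured at 14.4, 14.5 and 13.5 CPM in dmPGE2+APAP, 17.1, 14.0 and 16.0 CPM in APAP and 15.3, 11.4 and 5.62 CPM in Control. Control replicate 3, which had the highest level of miR-192-3p, miR-194-5p and miR-194-2-3p, had the lowest of miR-215-5p. APAP over Control gave a log2 change of 0.56 (SE 0.32, edgeR adjusted p 0.546). With TMM scaling and all 9 libraries this was opposite in sign to all 4 members, but the difference was not tested. With library totals miR-194-5p turned to 0.018, and alternatives for miR-215-5p were not examined. dmPGE2+APAP over APAP gave -0.16 (SE 0.33, edgeR adjusted p 0.938) and dmPGE2+APAP over Control gave 0.40 (SE 0.33, edgeR adjusted p 0.675).

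Ratios between strands within a library need no scaling between libraries. In the miR-192 hairpin the passenger was rare: reads of miR-192-3p amounted to 0.0330%, 0.0269% and 0.0212% of those of miR-192-5p in dmPGE2+APAP, 0.0303%, 0.0254% and 0.0186% in APAP and 0.0210%, 0.0147% and 0.0439% in Control. The Control libraries enclosed the range of all others. The mean log2 ratio was -11.87 ± 0.32 in dmPGE2+APAP, -12.00 ± 0.35 in APAP and -12.03 ± 0.80 in Control (SD, n = 3, with 0.5 reads added to each count).

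For miR-194 the passenger share was higher. miR-194-2-3p reads were 0.557%, 0.377% and 0.449% of miR-194-5p reads in dmPGE2+APAP, 0.494%, 0.566% and 0.489% in APAP and 0.482%, 0.836% and 0.655% in Control. These shares are a lower limit for the arm ratio of Mir194-2 alone, since the guide row may also hold reads of Mir194-1. Control replicates 2 and 3 were again above the rest. The mean log2 ratio was -7.76 ± 0.27 in dmPGE2+APAP, -7.59 ± 0.12 in APAP and -7.28 ± 0.40 in Control (SD, n = 3). The difference between dmPGE2+APAP and Control was -0.48 (SE 0.28), with p = 0.2 in an exact two-sided permutation test. It was -0.29 without Control replicate 2 and -0.69 without Control replicate 1.

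The guides of the neighbouring hairpins were present in very unequal amounts. Reads of miR-194-5p were 5.81%, 4.28% and 4.91% of those of miR-192-5p in dmPGE2+APAP, 6.62%, 5.15% and 4.65% in APAP and 4.19%, 4.60% and 7.32% in Control. Over all libraries the mean level of miR-192-5p was 19.4-fold that of miR-194-5p, a ratio of reads that includes any difference in how well each strand is ligated and amplified. The group means of the log2 ratio were -4.33 ± 0.22 in dmPGE2+APAP, -4.21 ± 0.26 in APAP and -4.26 ± 0.43 in Control (SD, n = 3), and they differed by less than the spread between replicates. Of the 9 comparisons of the 3 ratios, exact two-sided permutation tests gave p between 0.2 and 1, and 1 for each after Benjamini-Hochberg adjustment. With 3 against 3 libraries this test cannot give less than 0.1.

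**Figure D4:**
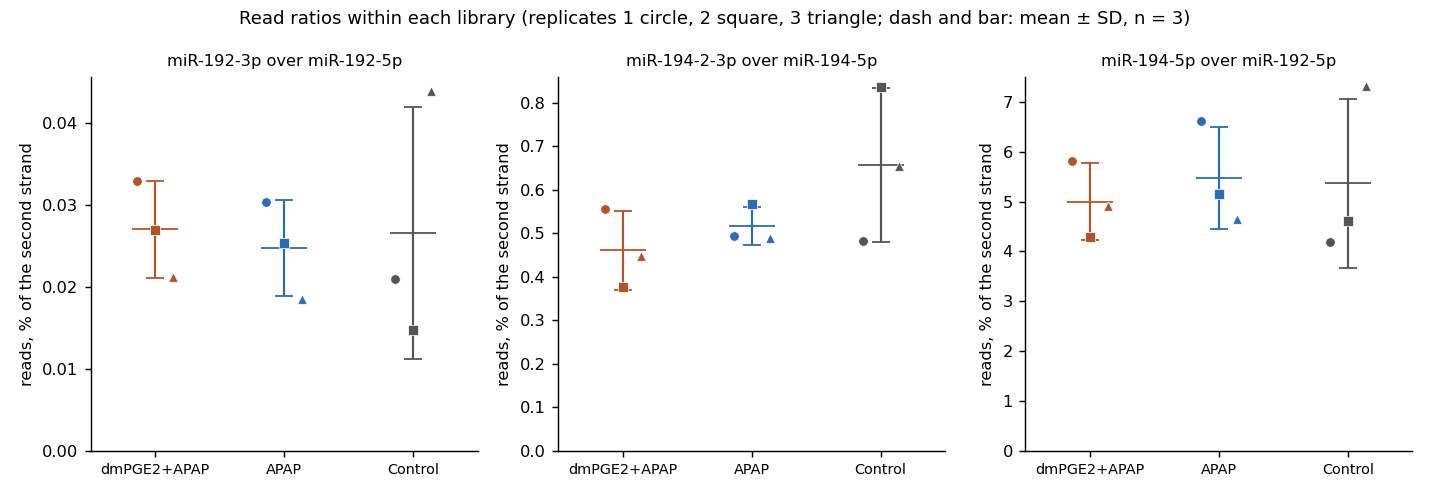
Reads of the first strand as a percentage of the second within each library, with the mean and SD of 3 libraries, on axes that start at 0. The widest spread is in Control for each ratio, for example 4.19% to 7.32% for miR-194-5p over miR-192-5p.

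The strands differed in how closely their levels followed each other from library to library. Pearson's r of log2 CPM over the 9 libraries, which share their scaling and depth, was 0.06 between miR-192-5p and miR-194-5p and -0.07 between miR-192-5p and its own passenger. For miR-194-5p and miR-194-2-3p it was 0.53, and for miR-194-5p and miR-192-3p 0.67. These values are a description of 9 libraries in 3 groups. Control replicate 3 held the highest level of miR-194-5p, miR-194-2-3p and miR-192-3p, so the r values of 0.53 and 0.67 rest in part on that library. How r changes without it was not tested. The disagreement is visible in Control replicate 3, where miR-192-5p stood at -0.18 from its own mean on the log2 scale, while miR-194-5p was at 0.32, miR-192-3p at 0.64 and miR-194-2-3p at 0.61. In Control replicate 2 the 2 passengers parted, with miR-194-2-3p at 0.56 and miR-192-3p at -0.65.

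**Figure D5:**
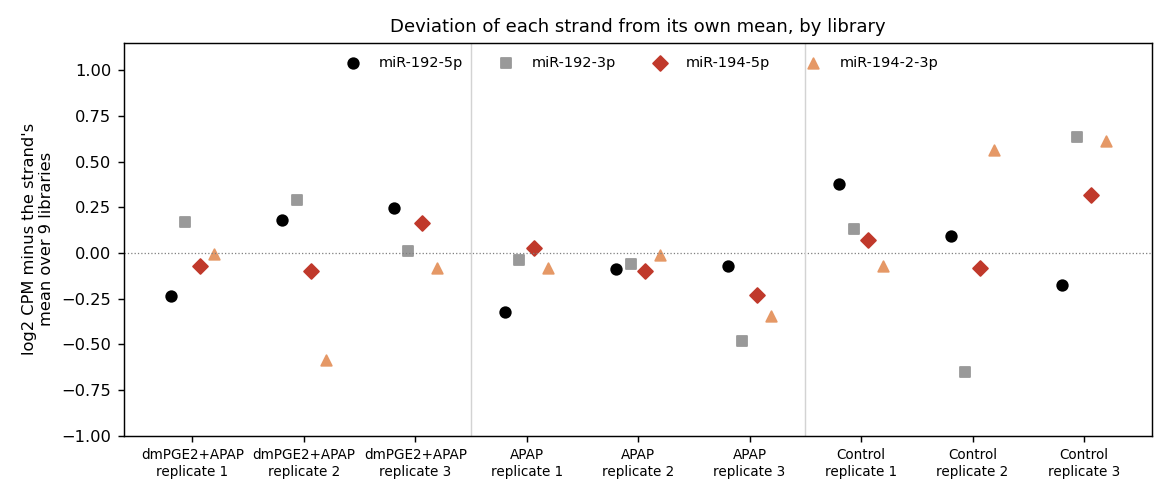
Log2 CPM of each strand minus its own mean over the 9 libraries, by group and replicate. The passengers scatter most, from -0.65 to 0.64 in miR-192-3p, and the guides least, with miR-194-5p between -0.23 and 0.32.

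The rows most like each guide were ranked by r over the 9 libraries among the 202 tested rows with a mean of at least 10 CPM that are no members. For miR-192-5p they were miR-1843a-5p (r = 0.85), miR-151-3p (0.84), miR-133a-3p (0.83), miR-125b-2-3p (0.83) and miR-1843b-5p (0.80). miR-133a-3p is one of the muscle markers. miR-151-3p had 316, 419 and 396 CPM in dmPGE2+APAP, 278, 327 and 364 in APAP and 409, 414 and 374 in Control. With the other 3 members ranked too, miR-194-5p was number 91 of 205 in likeness to miR-192-5p. For miR-194-5p the closest were miR-182-5p (0.76), miR-151-5p (0.73), miR-28a-3p (0.72), miR-199a-5p (0.68) and miR-425-5p (0.68). miR-182-5p had 48.4, 49.4 and 44.4 CPM in dmPGE2+APAP, 40.6, 44.5 and 36.8 in APAP and 49.2, 43.6 and 79.5 in Control, where replicate 3 was high in this row as it was in miR-194-5p.

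Among the liver-enriched miRNAs that are no members, 0 of 8 were called by edgeR in any comparison. For APAP over Control 2 lay above 0 and 6 below (median log2 change -0.07), beside 199 of all 360 tested rows below 0. In dmPGE2+APAP over APAP 3 lay above and 5 below (median -0.05), beside 180 of 360 below. For dmPGE2+APAP over Control 0 lay above and 8 below (median -0.19), beside 194 of 360 below. Library totals moved the median of all rows by 0.22 in that comparison. The signs of these 8 with library totals were not examined. Both arms of miR-122 are among them, so the 8 rows are not all independent. The most abundant of them, miR-122-5p, averaged 191278 ± 18317 CPM in dmPGE2+APAP, 179307 ± 19388 in APAP and 226860 ± 84080 in Control (SD, n = 3). Its counts differed from those of the miR-122b-3p row by at most 0.0174% in any of the 9 libraries. The same reads may be counted in both rows, so its level is uncertain. miR-148a-3p, the next, averaged 91653 ± 14651 CPM in dmPGE2+APAP, 97007 ± 11568 in APAP and 128556 ± 27327 in Control (SD, n = 3). Its log2 change was -0.49 (SE 0.21, edgeR adjusted p 0.348) for dmPGE2+APAP over Control, where miR-192-5p was at -0.04.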

How the data were processed

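Per the labels' protocols the libraries measure small RNA of mouse liver, and per the submitters' processing notes reads were mapped with Bowtie to mm10. Its version and mismatch setting, the counting program and the annotation are unknown here. The authors deposited read counts per mature miRNA and TPM values, which equal counts divided by the library total with no length term. The columns with the prefix BC were taken as Control because the other prefixes name the other groups, and their numbers as the replicate numbers. Total reads per library ranged from 1038799 to 10483460. From the counts, edgeR 4.0.16 in R 4.3.3 (TMM, filterByExpr with a minimum count of 10 and a minimum total of 15, robust quasi-likelihood fit of all 9 libraries) tested 360 of 946 rows with Benjamini-Hochberg adjustment at 0.05. It was tested on simulated data with changes larger than those of the members. That simulation cannot show whether changes of the members' size would be found. Ratios within a library used a pseudocount of 0.5 reads and exact two-sided permutation tests. Intervals are Clopper-Pearson or exact Poisson at 95%, and a count of 0 was bounded by 3 reads. Alternatives were library totals, no filter, a mean of at least 10 CPM, a replicate block, only the 2 groups compared, DESeq2 1.42.0, limma-voom (limma 3.58.1), the deposited TPM values as log2(value + 1) in limma, another ratio pseudocount (2 reads) and leaving out each library. Sequences are from RefSeq for GRCm38.p6. The text names the 4 members, their chromosome 1 relatives, the 5 rows most like each guide, the 2 most abundant other liver-enriched miRNAs and the most abundant of each marker list. Outside this rule it names miR-122b-3p, for its counts near those of miR-122-5p. It also names miR-223-3p, picked for the largest myeloid change in dmPGE2+APAP over APAP. The members and lists were chosen with earlier results of these data known.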

Additional observations from a re-analysis of the deposited data

How the results depend on the processing

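Each group had 3 libraries, with 18 to 386 reads of a passenger strand in each, so small changes could have been missed. The printed intervals are not adjusted for multiple tests and do not mark the smallest detectable change. All 204 alternative values of the members stayed above an adjusted p of 0.05; 183 kept their sign. The signs that turned were those of APAP over Control for miR-192-3p (deposited TPM 0.013) and miR-194-5p (library totals 0.018, TPM 0.056), and those of dmPGE2+APAP over Control for miR-192-5p (library totals 0.22, DESeq2 0.0019, TPM 0.21), miR-192-3p (no filter -0.093) and miR-194-5p (library totals 0.11, TPM 0.15). Leaving out 1 library gave -0.59 to 0.051 for miR-192-3p in APAP over Control and -0.13 to 0.13 for miR-194-2-3p in dmPGE2+APAP over APAP. In dmPGE2+APAP over Control it gave -0.14 to 0.20 for miR-192-5p, -0.21 to 0.39 for miR-192-3p and -0.165 to 0.036 for miR-194-5p. Of 72 alternative ratio differences 13 turned sign, all on leaving out 1 library: the range of miR-192-3p over miR-192-5p was -0.32 to 0.46 for APAP over Control, -0.054 to 0.30 for dmPGE2+APAP over APAP and -0.18 to 0.60 for dmPGE2+APAP over Control, and that of miR-194-5p over miR-192-5p was -0.10 to 0.30, -0.24 to 0.019 and -0.23 to 0.18 in the same order. That of miR-194-2-3p over miR-194-5p kept its sign, at -0.52 to -0.12, -0.31 to -0.05 and -0.69 to -0.29. The number of miRNAs called for APAP over Control was 3, and it became 8 with library totals, 9 with no filter, 0 with a mean of at least 10 CPM, 0 with a replicate block, 7 with only the 2 groups compared, 13 with DESeq2, 8 with TPM and 0 to 9 on leaving out 1 library. For dmPGE2+APAP over APAP it was 1, and became 9 with no filter, 2 with a replicate block, 0 with only the 2 groups, 8 with DESeq2 and 0 to 5 on leaving out 1 library. For dmPGE2+APAP over Control it was 1, and became 2 with library totals, 2 with no filter, 0 with a mean of at least 10 CPM, 2 with DESeq2 and 1 to 2 on leaving out 1 library. The cause of these shifts was not tested. Between libraries of the same replicate number, deviations from the group means had r from -0.25 to 0.17. The labels give no pairing, and with 3 libraries a group these values cannot show whether such libraries share more than a number. With the replicate block miR-192-5p was at -0.28 for APAP over Control, 0.23 for dmPGE2+APAP over APAP and -0.05 for dmPGE2+APAP over Control. In the same order miR-194-2-3p was at -0.53, -0.03 and -0.56.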

Other observations

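The red-cell marker miR-451a, an erythroid miRNA, was lower in dmPGE2+APAP than in APAP, with 294.7 ± 18.0 CPM in dmPGE2+APAP and 800.4 ± 323 CPM in APAP (SD, n = 3; log2 change -1.44, SE 0.25, edgeR adjusted p 0.00993), and Control livers had 409 ± 33.99 CPM. The call was lost in 3 of 17 alternatives: with only the 2 groups compared (edgeR adjusted p 0.0964), without APAP replicate 1 (0.0620, log2 change -1.05) and without dmPGE2+APAP replicate 2 (0.0568). Over all 17 the adjusted p ran from 1.0e-05 to 0.0964. It was the only marker called by edgeR in any of the lists of other cell types. Summed levels of the myeloid list were 153 to 238 CPM in dmPGE2+APAP, 177 to 319 in APAP and 124 to 233 in Control. The myeloid list holds only arms of miR-223 and miR-142a, so its 4 markers are not independent. For dmPGE2+APAP over APAP 4 of 4 lay below 0 (median log2 change -0.75), beside 180 of all 360 tested rows. For APAP over Control 4 of 4 lay above 0 (median 0.59), beside 161 of 360, with 0 called in both. These comparisons share the APAP libraries. The most abundant, miR-142a-5p, had the smallest change of the 4 for dmPGE2+APAP over APAP, -0.24 (SE 0.31, edgeR adjusted p 0.913), and miR-223-3p the largest, -0.93 (SE 0.32, edgeR adjusted p 0.326). The endothelial list, led by miR-126a-3p, summed to 8788 to 10174 CPM in dmPGE2+APAP, 7990 to 9434 in APAP and 7437 to 9115 in Control. The stellate and mesenchymal list, led by miR-143-3p, summed to 25804 to 41606 CPM in dmPGE2+APAP, 24543 to 37140 in APAP and 25916 to 41670 in Control. The cholangiocyte and epithelial list, led by miR-200a-3p, summed to 481 to 1009 CPM in dmPGE2+APAP, 532 to 672 in APAP and 479 to 882 in Control. The lymphoid list, led by miR-150-5p, summed to 26.01 to 30.9 CPM in dmPGE2+APAP, 20.1 to 33.1 in APAP and 13.9 to 33.1 in Control. In the muscle list the most abundant row, miR-1a-3p, had 459 ± 196 CPM in dmPGE2+APAP, 614 ± 290.2 in APAP and 1335 ± 1083 in Control (SD, n = 3).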
